A study of Mus musculus with 5 samples.

Results

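The cells described here are liver sinusoidal endothelial cells from DEN+WAD mouse liver, found in droplet single-cell RNA libraries that had been sorted for other cells. They were chosen cell by cell from measured values. A cell had to hold 1000 or more UMIs (unique molecular identifiers, each a counted RNA molecule), 3 or more of the 5 endothelial genes Pecam1, Cdh5, Kdr, Ptprb and Eng, and at least 1 UMI of both Stab2 and Clec4g. It also had to hold fewer than 20 UMIs per 10000 of Dcn, Col3a1 and Colec11 together, and no UMI of Cd5l or Cd3e, which kept out mesenchymal cells, Kupffer cells and T cells. In the library labelled VitA-Col1a1-, 1468 of 9870 cells met this rule, a share of 14.9% with an exact binomial 95% interval of 14.2 to 15.6. In the VitA-Col1a1+ library the count was 424 of 2729, or 15.5% (14.2 to 17.0). Together these were 1892 of 12599 cells in the 2 libraries, out of 24007 in all 5 libraries.

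All 5 libraries came from male Rosa26mTmG;Col1a1-Cre mice on a C57BL/6J background, in which Cre driven by the Col1a1 collagen promoter turns a reporter from red to green. DEN+WAD mice had received diethylnitrosamine (DEN, a liver carcinogen) at 10 mg/kg when 2 weeks old, and from 6 weeks a liquid Western alcohol diet (WAD) with 3.5% ethanol by volume for 5 months. Controls had saline and chow for the same time. Nonparenchymal cells were sorted by vitamin A autofluorescence (VitA) and green reporter (Col1a1) to enrich hepatic stellate cells, the vitamin A-storing pericytes of the sinusoid, so none of the gates was meant to collect endothelium. Applied elsewhere, the rule kept 165 of 10481 VitA+Col1a1+ DEN+WAD cells, 34 of 668 from VitA-Col1a1+ chow and 9 of 259 from VitA+Col1a1+ chow. Each group was 1 library, and the number of mice behind it was not given in the sources used here. No difference between groups can therefore be tested, and every interval covers counting error only.

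Sinusoidal endothelial cells line the capillaries of the liver lobule with a wall that has open pores and no basement membrane. They take up waste from the blood through scavenger receptors such as Stab1 and Stab2 and digest it in lysosomes, and they send signals such as Wnt2, Bmp2 and Hgf to hepatocytes. Their genes differ along the sinusoid, from the portal vein, where Notch ligands such as Dll4 are high, to the central vein, where Wnt2, Wnt9b and Rspo3 are high. In chronic injury they can take on features of ordinary capillaries, a change known as capillarization.

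Promoter sequences are shown for the pair of genes that defined these cells and for a pair that stood higher in DEN+WAD than in chow. Each is the 300-base window around a gene start from RefSeq on build GRCm38.p6, printed 5′ to 3′ on the strand of the gene. Stab2, a hyaluronan scavenger receptor, lies on the minus strand at chr10:86841198-87008025 and its window is chr10:87007893-87008192. Clec4g, a C-type lectin of the sinusoid, lies on the minus strand at chr8:3707064-3720651 and its window is chr8:3720602-3720901. In these capitals mark GGAAG, the core of the sites bound by ETS factors such as Erg and Fli1, on either strand. Cxcl10 (window chr5:92348840-92349139, minus strand) encodes a T cell attractant and Isg15 (window chr4:156200769-156201068, minus strand) an interferon-induced ubiquitin-like protein. Here capitals mark the core of the interferon-stimulated response element (ISRE), GAAA and GAAA with any 2 bases between them, on either strand.
Stab2: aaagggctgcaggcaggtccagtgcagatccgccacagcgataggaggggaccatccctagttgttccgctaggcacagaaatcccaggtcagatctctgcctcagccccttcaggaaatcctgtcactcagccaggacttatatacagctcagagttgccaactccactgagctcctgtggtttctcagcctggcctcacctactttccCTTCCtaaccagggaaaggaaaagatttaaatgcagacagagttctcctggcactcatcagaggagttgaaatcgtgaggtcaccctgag
Clec4g: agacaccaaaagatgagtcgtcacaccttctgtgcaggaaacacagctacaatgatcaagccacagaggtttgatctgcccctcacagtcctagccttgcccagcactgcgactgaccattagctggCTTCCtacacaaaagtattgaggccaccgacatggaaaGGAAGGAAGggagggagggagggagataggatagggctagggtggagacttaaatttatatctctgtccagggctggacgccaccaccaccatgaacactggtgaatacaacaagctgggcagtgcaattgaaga
Cxcl10: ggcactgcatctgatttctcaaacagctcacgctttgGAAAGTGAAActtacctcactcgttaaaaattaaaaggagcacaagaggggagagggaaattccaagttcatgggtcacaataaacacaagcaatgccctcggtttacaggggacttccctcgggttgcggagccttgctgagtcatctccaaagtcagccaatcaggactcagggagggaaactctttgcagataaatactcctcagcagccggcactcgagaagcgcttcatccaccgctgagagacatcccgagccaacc
Isg15: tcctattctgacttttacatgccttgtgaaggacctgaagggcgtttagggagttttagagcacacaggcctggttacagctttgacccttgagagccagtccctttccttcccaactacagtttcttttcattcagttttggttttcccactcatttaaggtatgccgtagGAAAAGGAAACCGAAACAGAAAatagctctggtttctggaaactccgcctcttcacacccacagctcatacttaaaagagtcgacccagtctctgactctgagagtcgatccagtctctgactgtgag

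The Stab2 window held 1 GGAAG match and the Clec4g window 3, of which a pair overlap. Neither held GATAA, the core bound by GATA factors such as Gata4. The Cxcl10 window held 1 ISRE match and the Isg15 window 3 overlapping ones. Over 32851 windows of the same length, GGAAG was found in 71.4%, GATAA in 25.4% and the ISRE in 3.44%. Of 20 sinusoidal genes, 13 had a window in the tables, and 12 of these held GGAAG against 73.9% of all genes. Of 12 interferon response genes 9 had a window, and 6 of them held the ISRE against 3.99% of all genes. A match describes these letters only and does not show that a factor binds there.

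The members held 11855513 UMIs in the library labelled VitA-Col1a1- and 6135768 in VitA-Col1a1+, with medians of 7833 and 13618.5 UMIs a cell against 9694 and 17380 in the other cells. The 165 VitA+Col1a1+ DEN+WAD cells had a median of 8833 UMIs, and the 34 and 9 chow cells 17725 and 17399. Median mitochondrial shares of the members were 3.83% and 3.63%. No member's barcode occurred as a member in another library. The doublet caller Scrublet marked 6 of the 1468 members and 0 of the 424. It marked 1 of the 10481 VitA+Col1a1+ DEN+WAD cells, so it did not work there. The library labelled VitA-Col1a1- held Col1a1 RNA at 2027 CPM (UMIs per 1000000 in the pooled cells) in its mesenchymal cells, against its label. The file header of that library names Cell Ranger 6.1.2 while the others name 3.1.0, and the labels name both the v3.1 and the v2 kit. Gate, software and library therefore cannot be told apart below.

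The genes of the rule were high in nearly every member by construction, and are given as a description only. Median Stab2 counts were 5 UMIs a cell (range 1 to 25) in the library labelled VitA-Col1a1- and 16 (1 to 59) in VitA-Col1a1+, and median Clec4g counts were 15 and 39. Pooled Stab2 was 697 and 1191 CPM, and pooled Clec4g was 2037 and 2885 CPM. Pecam1, an adhesion molecule of endothelial junctions, stood at 666 and 641 CPM. Kdr, the main VEGF receptor, stood at 1673 and 2326 CPM. In the mesenchymal cells of the same libraries Stab2 was at 2.68 and 2.43 CPM and Kdr at 2.30 and 2.40 CPM. Macrophage cells of the first library held Stab2 at 52.2 CPM and Kdr at 2.18 CPM.

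Cells close to the limits of the rule looked different on different sides. In the library labelled VitA-Col1a1-, 154 members held a single UMI of Stab2 or Clec4g, and 182 cells were left out because they lacked 1 of the 2 genes. Vwf, the clotting carrier of larger vessels, was at 40.9 CPM in members with 2 or more UMIs of both, 137 CPM in those with a single UMI, 459 CPM in the cells lacking 1 gene and 381 CPM in the 42 cells lacking both. Rspo3, a central vein signal, ran in parallel through the first 3 of these at 77.1, 176 and 841 CPM. The cells lacking both held it at 544 CPM, and it was also found in 72.1% of the mesenchymal cells of this library. On the mesenchymal side, the 106 members with a sum of 10 to 20 per 10000 had Lrat, the retinol-storing enzyme of stellate cells, at 210 CPM, and the 39 cells left out at 20 to 30 had it at 363 CPM.

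The demand for 0 Cd5l removed 648 cells from the library labelled VitA-Col1a1- and 1 from VitA-Col1a1+. Cd5l is a secreted Kupffer cell protein, at 6559 CPM in the 830 macrophage cells of the first library. Of the cells left out, 593 held 1 to 5 Cd5l UMIs and no Cd3e UMI. Their Dnase1l3 was at 2083 CPM against 2105 in members, and their C1qa, a complement gene of macrophages, was at 34.5 CPM against 30.9. The 51 cells with more than 5 Cd5l UMIs and no Cd3e UMI were another kind. They held C1qa at 3901 CPM and the Kupffer cell lectin Clec4f at 2426 CPM beside Stab2 at 209 CPM, with a median of 23495 UMIs.

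Known sinusoidal genes outside the rule marked the same cells, so the label held against its markers. Counting a gene as higher or lower when it differed by 2-fold or more with a mean of at least 10 CPM, 16 of 17 tested identity genes were higher than in all other cells of the library labelled VitA-Col1a1-, where 13.0% of all genes were higher and 14.2% lower. All 17 were higher in VitA-Col1a1+, where the background was 20.9% higher and 13.6% lower. The median log2 ratio of the list was 3.1 and 6.28, beside 0.10 and 0.22 over all genes tested. The comparison cells include the endothelial cells that the rule left out, and held Stab2 at 75.2 CPM in the first library and 13.2 CPM in VitA-Col1a1+. Their part in the smaller ratios of the first library was not tested. The one exception was the transcription factor Tfec, at 35.5 against 17.8 CPM, which macrophage cells also held at 60.9 CPM.

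Scavenger and lectin receptors were among the highest of these genes. Fcgr2b, the receptor that clears immune complexes, was at 1701 and 2171 CPM in members against 177 and 28.9 CPM in the other cells. Mrc1, the mannose receptor, was at 1333 and 1591 CPM against 204 and 17.0, and macrophage cells held it at 328 CPM. Stab1 was at 793 and 1263 CPM, and Lyve1, the hyaluronan receptor shared with lymphatic vessels, at 762 and 1209 CPM. The nuclease Dnase1l3, which degrades DNA released into blood, reached 2105 CPM (2079 to 2131, exact Poisson 95% interval) and 2439 CPM (2400 to 2479), a ratio of 8.55 and 87.3 to the other cells. F8, clotting factor VIII, stood at 977 and 894 CPM, and the water channel Aqp1 at 2369 and 3284 CPM.

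**Figure D1:**
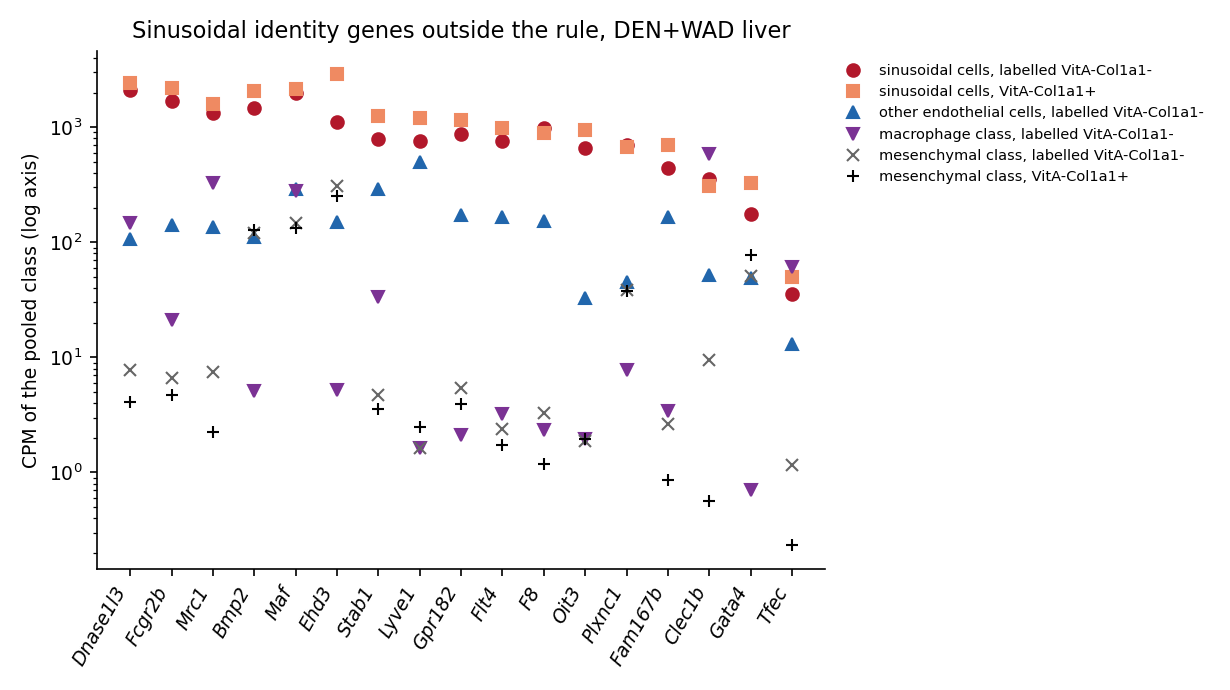
Pooled levels in CPM (UMIs per 1000000, log axis) of 17 sinusoidal genes that the rule did not use, in members of both DEN+WAD libraries and in the other cell classes of those libraries, with classes at 0 not drawn. Dnase1l3 was at 2105 and 2439 CPM in members, 108 CPM in the other endothelial cells and 7.74 and 4.08 CPM in the mesenchymal cells.

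Receptors and transcription factors of the endothelium followed. Of 15 VEGF, angiopoietin and BMP pathway genes, 11 were higher than in the other cells in the library labelled VitA-Col1a1- and 12 in VitA-Col1a1+. Over all genes 13.0% and 20.9% were higher. The BMP target Id3 was lower in each library. Flt4, the VEGF-C receptor that adult sinusoids share with lymphatics, stood at 756 and 991 CPM. Of 16 transcription factors, 11 and 13 were higher. Gata4, the factor needed for sinusoidal identity in the mouse liver, stood at 177 and 325 CPM, with 51.1 and 78.3 CPM in the mesenchymal cells, and Maf at 1994 and 2133 CPM. The flow sensor Klf2 was at 4159 and 4637 CPM against 1359 and 946 CPM in the other cells.

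Among 18 tested endocytosis and lysosome genes 5 were higher and 4 lower in the library labelled VitA-Col1a1-, and 8 and 2 in VitA-Col1a1+. The shares over all genes were 13.0% higher and 14.2% lower in the first library, and 20.9% and 13.6% in VitA-Col1a1+. The fatty acid translocase Cd36 stood at 1217 and 1029 CPM and the lysosomal protease Ctsl at 2562 and 1913 CPM. Lrp1, a broad endocytic receptor of hepatocytes and macrophages, was at 9.36 and 10.4 CPM in members against 395 and 538 CPM in the other cells. Colec12, a scavenger receptor of other vessels, was likewise low at 6.41 and 4.56 CPM against 52.2 and 110 CPM.

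Signals that these cells send to their neighbours were divided. Of 18 tested angiocrine ligands, 8 were higher and 6 lower than in the other cells of the library labelled VitA-Col1a1-. In VitA-Col1a1+ 10 were higher and 8 lower. Of all genes 13.0% were higher and 14.2% lower in the first library, and 20.9% and 13.6% in VitA-Col1a1+. Bmp2, which sets hepcidin and iron balance from the sinusoid, was at 1471 and 2063 CPM, and its partner Bmp6 at 56.3 and 93.7 CPM. Inhbb, a subunit of activin B, was at 319 and 232 CPM in members and 1.69 and 2.19 CPM in mesenchymal cells. The stellate chemokine Cxcl12 was far lower in members, at 46.4 and 72.2 CPM against 922 and 4181 CPM.

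Markers of other cells were low in the members but not at 0 in the library labelled VitA-Col1a1-. All 12 tested stellate markers there, and 13 of 13 in VitA-Col1a1+, were lower than in the other cells. Over all genes 14.2% and 13.6% were lower. Summed over 13 stellate markers, members held 394 and 330 CPM against 11556 and 12616 CPM in mesenchymal cells. The summed 11 macrophage markers came to 168 CPM against 24675 CPM in macrophage cells, and to 5.22 CPM in VitA-Col1a1+, with 7 of the 11 at 0. Summed hepatocyte markers were 1500 and 40.6 CPM. A single member held 4083 of the 9218 Alb UMIs of the first library, and single members held 3898 of 4085 Igkc, 2569 of 2587 Ighg2b and 1309 of 1424 Hbb-bs UMIs. All 11 lymphocyte markers were at 0 in VitA-Col1a1+ members.

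The nearest cells to compare with were the 42 endothelial cells of the library labelled VitA-Col1a1- that met the rest of the rule but had neither Stab2 nor Clec4g. Against them 12.2% of all genes were higher and 10.0% lower in the members. Of the 17 tested identity genes 16 were higher, with a median log2 ratio of 2.75 beside 0.04 over all genes. Lyve1 was the exception at 762 against 495 CPM. Of 18 pan-endothelial genes 3 were higher and none lower. Both classes had to meet the rule's demand for endothelial genes, and they were split on Stab2 and Clec4g. Likeness in general endothelial genes and difference in sinusoidal ones were therefore partly set by the selection. How far they go beyond it was not tested. Adam23, an integrin-binding adhesion protein, was at 1022 CPM against 9.78 CPM (3 UMIs), and Aass, an enzyme of lysine breakdown, at 251 CPM against 3.26 CPM (1 UMI). Hgf, the hepatocyte growth factor, was at 167 against 6.52 CPM, although mesenchymal cells held more of it, at 333 CPM.

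Genes of larger vessels ran the other way. Of 15 non-sinusoidal vascular markers 8 were lower in the members, as were 7 of 15 capillarization genes and all 4 tested lymphatic markers. Plvap, the diaphragm protein of fenestrated capillaries and veins, was at 356 against 1255 CPM, Ly6c1 at 52.0 against 701 CPM and Cd34 at 57.0 against 244 CPM. The other endothelial cells also held the lymphatic chemokine Ccl21a at 720 CPM, Mmrn1 at 231 CPM and Cd74, the invariant chain of antigen presentation, at 3457 CPM against 75.8 CPM in members. They held macrophage C1qa at 639 CPM, and the part of other cells' RNA in these 42 cells was not tested. Compared instead with the 182 cells lacking 1 of the 2 genes, 11 of 17 identity genes were higher, with a median log2 ratio of 1.21.

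Position along the sinusoid was read from landmark genes. Cells were called central when they held at least 1 UMI of Wnt2, Wnt9b or Rspo3 and none of Dll4, Efnb2 and Ltbp4, and portal for the reverse. This gave 86 central and 743 portal cells in the library labelled VitA-Col1a1-, with 604 holding both kinds and 35 neither. In VitA-Col1a1+ it gave 7 central, 117 portal, 299 both and 1 neither. The deeper library had more cells with both kinds, and the part of depth in these counts was not tested. The landmark Rspo3 was also found in 72.1% and 75.1% of the mesenchymal cells of these libraries, against 12.2% and 21.2% of members. The part of mesenchymal RNA in the central calls was not tested. Between central and portal cells 2.73% of all genes were higher and 2.17% lower in the first library, and 13.6% and 13.1% in the second, where 7 cells made up a side.

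Most genes kept out of that split differed in the direction known for them. Of 5 central genes 4 were higher in central cells in each library, with median log2 ratios of 1.68 and 2.71 beside 0.03 and 0.04 over all genes. Of 4 portal genes 3 were lower in each, with medians of -1.12 and -1.33. Kit, the receptor tyrosine kinase that marks central sinusoid, was at 254 in central and 90.1 CPM in portal cells of the library labelled VitA-Col1a1-, and at 632 and 96.9 CPM in VitA-Col1a1+. Thbd, thrombomodulin, was at 484 and 151 CPM, and at 719 and 76.5 CPM. Cdh13, an adiponectin-binding cadherin, was 3.97-fold (3.33 to 4.71) and 8.95-fold (6.36 to 12.5) higher in central cells. Fabp4, a fatty acid carrier, was within 1.19-fold in the first library and was lower by 1.17-fold in the second, against its place on the list.

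On the portal side, Msr1, a macrophage-type scavenger receptor, was at 147 CPM in central and 545 CPM in portal cells, and at 10.9 (1 UMI) and 418 CPM in VitA-Col1a1+. Ntn4, a netrin, was lower in central cells by 2.28-fold and 2.13-fold. Efnb1 was lower by 2.08-fold in the first library but alike in the second, at 349 and 341 CPM. Among the genes with the largest differences in both libraries, the selectin Selp was higher in central cells. It was at 299 and 64.6 CPM, and at 948 and 153 CPM in VitA-Col1a1+. The portal side was led by Esm1, a tip cell proteoglycan, at 42.7 against 636 CPM and at 0 against 330 CPM. Of the identity genes, 0 of 17 were past 2-fold in the first library, with a median log2 ratio of 0.07.

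**Figure D2:**
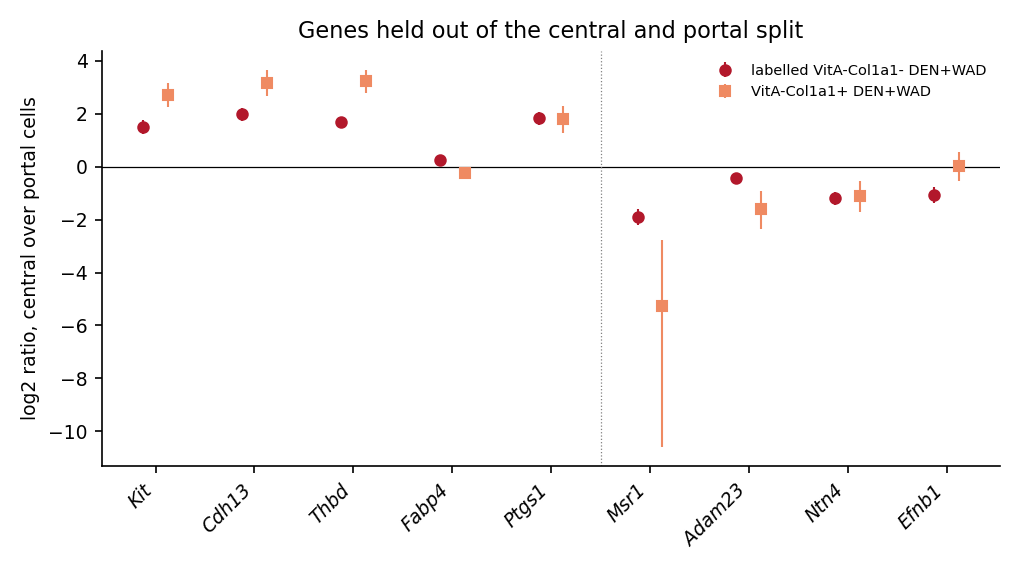
Log2 ratio of central over portal members for 5 central genes (left of the dotted line) and 4 portal genes (right), none of which was used to split the cells, in both DEN+WAD libraries. Bars are 95% counting intervals, and 0 marks equal levels. Kit, Cdh13, Thbd and Ptgs1 lay above 0 in both libraries and Msr1, Adam23 and Ntn4 below it.

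At a common depth of 2000 UMIs a cell, Wnt2 was found in 23.6% of members (21.4 to 25.9) of the library labelled VitA-Col1a1- and 34.8% (30.2 to 39.5) of VitA-Col1a1+, and Dll4 in 31.7% and 47.5%. At full depth these shares were 44.1% and 68.2% for Wnt2 and 66.9% and 88.0% for Dll4. In macrophage cells of the first library, which should lack both, the thinned shares were 0.13% and 0.66%, and in mesenchymal cells of the second 0.29% and 0.77%. At this depth 28 members of the first library and 1 of the second were too shallow and were left out, and the median depths before thinning were 17068.5 UMIs for macrophage cells and 17548 for mesenchymal cells.

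Injury was compared within the VitA-Col1a1+ gate, where 424 DEN+WAD and 34 chow cells met the rule. Several chemokine and adhesion genes, Edn1 and Ednrb stood higher in DEN+WAD, and no identity gene was past 2-fold. Over all genes 4.94% were higher and 2.89% lower in DEN+WAD. Of 12 tested adhesion and chemokine genes 6 were higher and none lower, with a median log2 ratio of 1.15 beside -0.01 over all genes. In the VitA+Col1a1+ DEN+WAD library set against the same chow cells, where the background was 4.98% higher and 3.98% lower, 4 of 11 were higher with a median of 0.75. Both comparisons share the chow cells.

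The T cell attractants Cxcl9 and Cxcl10 were among these. Cxcl9 was at 436 (labelled VitA-Col1a1-), 444 (VitA-Col1a1+) and 390 CPM (VitA+Col1a1+) with DEN+WAD. With chow it was at 80.4 (VitA-Col1a1+) and 49.5 CPM (VitA+Col1a1+), so every DEN+WAD library lay above both chow libraries. In the same order Cxcl10 was at 319, 377, 364, 27.3 and 18.6 CPM, a ratio of 13.8 (8.59 to 23.7) within the gate. Cxcl10 was found in 220 of 424 DEN+WAD cells and 4 of 34 chow cells, of which 1 held 14 of the 17 chow UMIs. In mesenchymal cells Cxcl10 was also higher, at 173 against 70.9 CPM, and Cxcl9 at 56.6 against 1.43 CPM. Ccl2, which draws monocytes, was at 98.1 against 8.04 CPM (5 UMIs), and mesenchymal cells of the same DEN+WAD library held more of it, at 346 CPM. Of its 602 UMIs in the 424 DEN+WAD cells, 5 cells held 378 and 1 of these 165, and the other cells held Ccl2 at 37.1 CPM.

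Vcam1, a leukocyte adhesion molecule, was at 302 CPM in DEN+WAD and 116 CPM in chow, a ratio of 2.61 (2.06 to 3.35). In the VitA+Col1a1+ DEN+WAD library it was at 195 CPM, less than 2-fold above chow. Selp, the stored platelet selectin, was at 108, 138 and 36.0 CPM in the 3 DEN+WAD libraries and at 3.22 CPM (2 UMIs, both in 1 cell) and 0 in chow. Vwf was at 48.5, 105 and 71.9 CPM in DEN+WAD and at 0 in all 34 and all 9 chow cells. Against a floor of 3 UMIs Vwf was at least 21.9-fold higher. A few cells carried much of this, since 21 of the 424 cells, described below, held 519 of the 647 Vwf UMIs, and without them Vwf was at 23.2 CPM and Selp at 60.1 CPM. A single VitA+Col1a1+ DEN+WAD cell held 55 of the 106 Vwf UMIs of its library.

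Of 10 tested flow and vasoactive genes, Edn1, Ednrb and Ptgis were higher in DEN+WAD within the gate and none was lower, with a median log2 ratio of 0.15 beside -0.01 over all genes. Edn1, the vasoconstrictor endothelin 1, was at 48.0, 43.4 and 52.2 CPM in the 3 DEN+WAD libraries and at 3.22 CPM (2 UMIs) and 0 in chow. Its receptor gene Ednrb was at 270, 187 and 252 CPM against 14.5 and 6.19 CPM, a ratio of 12.95 (6.8 to 28.4) within the gate. Mesenchymal cells held more Ednrb than either, at 589 CPM in DEN+WAD and 835 CPM in chow, so their DEN+WAD level was the lower one. Inhbb was at 319, 232 and 221 CPM against 69.1 and 43.3 CPM, with mesenchymal cells near 0.

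Interferon response genes were partly higher. Of 12 tested, 5 were higher in the VitA-Col1a1+ comparison and 6 with the VitA+Col1a1+ DEN+WAD library, with median log2 ratios of 0.56 and 0.85. Isg15 was at 292, 478 and 407 CPM in DEN+WAD and at 153 and 124 CPM in chow, so the lowest DEN+WAD value was above the highest chow value. Gbp2, an interferon-induced GTPase, was at 91.5, 81.5 and 66.5 CPM against 16.1 and 24.8 CPM.

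Of 14 capillarization genes 3 were higher and 1 was lower, with a median log2 ratio of 0.28. The higher genes were Vwf, Vcam1 and Plvap. Plvap was at 356, 411 and 303 CPM against 140 and 86.7 CPM, and mesenchymal cells held it at 1206 CPM in DEN+WAD. The lower one was Ly6c1, at 11.6 against 28.9 CPM, but 1 of the 34 chow cells held 15 of the 18 chow UMIs, and the other chow cells had 5.00 CPM. In the remaining libraries Ly6c1 was at 52.0 and 8.82 CPM with DEN+WAD and at 0 with VitA+Col1a1+ chow, so the values overlapped. Cd34, a common mark of capillary endothelium, was at 29.2 and 24.1 CPM, a ratio whose interval of 0.71 to 2.21 includes equal levels. Basement membrane Col4a1 was at 754 and 661 CPM. Fabp4, which capillary endothelium uses for fatty acid transport, was at 3100, 2077 and 1493 CPM in DEN+WAD against 614 and 303 CPM, with 19.4 CPM in mesenchymal cells.

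Of the identity genes 0 of 18 were past 2-fold within the gate, and their median log2 ratio was -0.33. Flt4 was at 991 against 1003 CPM and Oit3, a secreted sinusoidal protein, at 949.5 against 977 CPM. Fcgr2b was at 1701, 2171 and 2103 CPM against 3109 and 4111 CPM, and Bmp2 at 1471, 2063 and 2360 against 3238 and 3579 CPM. In each of these pairs all 3 DEN+WAD values were below both chow values. Lyve1 ran the other way, at 762, 1209 and 1071 against 649 and 378 CPM. Kit was lower past 2-fold, at 146, 204 and 155 CPM against 434 and 322 CPM, a ratio of 0.47 (0.41 to 0.54) within the gate. In VitA-Col1a1+ chow 28 of 34 cells held Kit and the highest had 43 of its 270 UMIs. In VitA+Col1a1+ chow 1 of 9 cells held 35 of 52 UMIs, and the other cells had 126 CPM, below all 3 DEN+WAD values. Cycling genes were lower for 6 of 9, but 1 chow cell held all 43 Mki67 UMIs and 72 of the 76 Top2a UMIs, so that difference rests on a single cell.

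**Figure D3:**
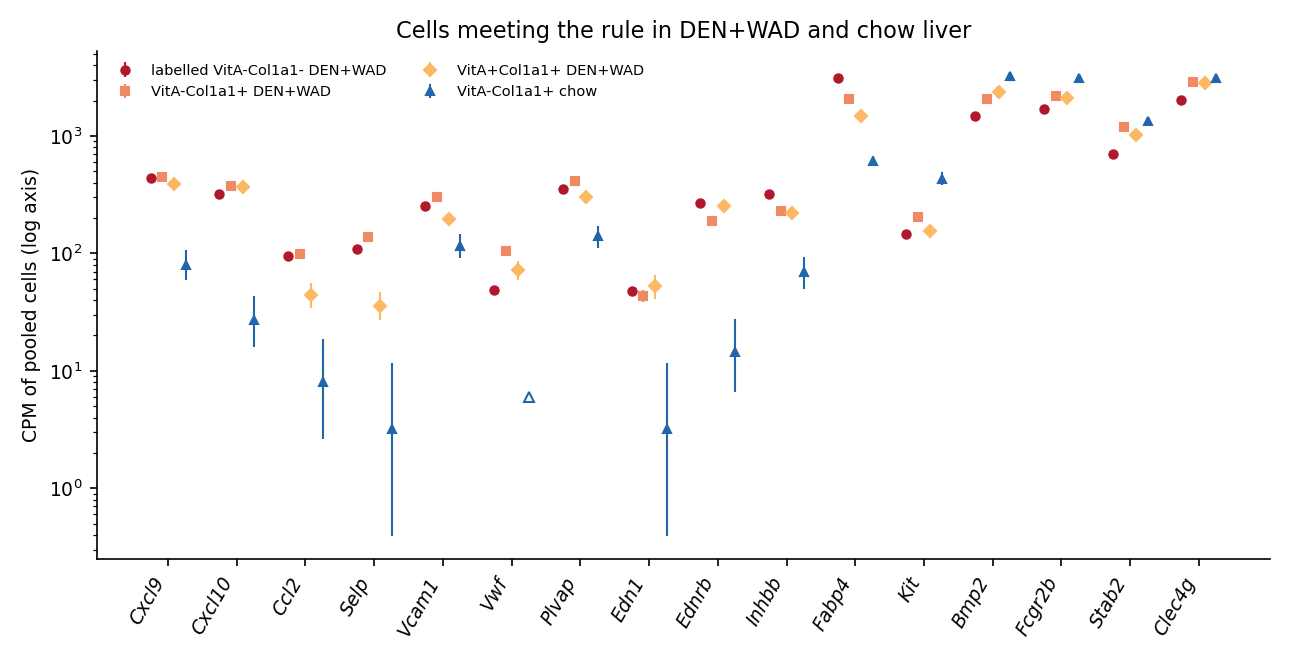
Pooled levels in CPM (UMIs per 1000000, log axis) of 16 genes in cells meeting the rule in 3 DEN+WAD libraries and the VitA-Col1a1+ chow library, with exact Poisson 95% intervals. The open triangle for Vwf is the upper limit of a count of 0. Cxcl9, Cxcl10, Selp, Edn1, Ednrb and Inhbb were higher in all 3 DEN+WAD libraries, and Kit, Bmp2 and Fcgr2b higher in chow.

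Genes of neighbouring cells also stood higher. Dcn, a mesenchymal gene of the rule, was at 258 CPM in DEN+WAD and 64.3 CPM in chow members. Of 5 tested stellate markers 3, Rgs5, Ecm1 and Lum, were higher too. The part of mesenchymal RNA in these differences was not tested. Abca1, the cholesterol exporter, named after its values were seen, was at 404, 203 and 204 CPM against 30.5 and 80.5 CPM and was at 51.9 CPM in mesenchymal cells, below the members.

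Members of the 2 DEN+WAD gates were close to each other. Between them 1.79% of genes were higher in VitA-Col1a1+ and 1.52% in the library labelled VitA-Col1a1-. Of 17 identity genes 1 was past 2-fold, Ehd3, an endocytic recycling protein, at 2884 against 1119 CPM, and the list's median log2 ratio was 0.41 beside 0.09 over all genes. Of the genes higher in VitA-Col1a1+, the ribosomal protein gene Rpl29 was at 670 against 59.6 CPM, and it stood at 666 against 61.4 CPM in the mesenchymal cells of the same libraries. Of the 147 genes higher and 125 lower in members, 46 and 59 were also past 2-fold in the same direction in mesenchymal cells, where 3.26% and 3.23% of all genes were. The lower genes included all 7 tested hepatocyte markers, with Alb at 10.8 against 778 CPM. Adam23 was lower as well, at 485 against 1022 CPM, while its mesenchymal levels were 7.64 and 12.4 CPM.

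Fn1, fibronectin, was at 316 CPM in VitA-Col1a1+ and 63.9 CPM in the library labelled VitA-Col1a1-, opposite to mesenchymal cells at 342 and 937 CPM. Fgf23, a hormone of phosphate balance made chiefly by bone cells, was at 93.1 and 25.2 CPM. Its gene lies at chr6:127072902-127081408 on the plus strand. Both genes came largely from a small set of members that clustering of each library by itself set apart, with 23 cells (1.57%) in the library labelled VitA-Col1a1- and 21 cells (4.95%) in VitA-Col1a1+. The clusters were formed from these same genes, so their levels are descriptions. The 2 sets were found separately and shared 7 of their 10 leading genes: Fgf23, Ubd, Fn1, Car4, Ms4a6d, Csf2rb2 and Csf2rb.

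In these sets Fgf23 was at 790 CPM (697 to 892) and 935 CPM (859 to 1015), and at 3.30 and 0.36 CPM in the other members. Ubd, an interferon- and TNF-induced ubiquitin-like protein, was at 2346 and 1836 CPM against 20.4 and 1.09 CPM. Fn1 was at 1365 and 3044 CPM against 26.6 and 15.4 CPM. Csf2rb2, a cytokine receptor chain of the IL-3 and GM-CSF family, was at 820 and 706 CPM against 27.2 and 4.52 CPM. Vessel and activation genes were high in the same cells: Vwf was at 378 and 853 CPM against 39.0 and 23.2 CPM. Selp was at 657 and 848 CPM against 92.4 and 60.1 CPM. Lrg1, a TGF-beta pathway modulator of diseased vessels, was at 1193 and 1960 CPM against 99.1 and 17.0 CPM.

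Every member held Stab2 and Clec4g by the rule, so their levels in these cells are a description. Stab2 was at 748 and 861 CPM against 695 and 1227 CPM, and Clec4g at 1913 and 2434 against 2041 and 2935 CPM. Gpr182, an atypical chemokine receptor of the sinusoid, was at 860 and 918 against 868 and 1182 CPM. Lyve1 was at 639 and 448 against 765 and 1293 CPM, a larger gap in VitA-Col1a1+ than in the other library. Isg15 was at 742 and 1794 CPM against 279 and 333 CPM. They were deeper than other members, with medians of 14262 and 28778 UMIs, and Scrublet marked none of them. Mesenchymal Dcn was at 299.7 CPM in them against 185 CPM over all members of the library labelled VitA-Col1a1-, and at 194 against 258 CPM in VitA-Col1a1+, so the libraries differed in direction.

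Cyp1b1, the cytochrome that the study followed in stellate cells, was nearly limited to this set among the members. It was at 179 and 240 CPM there against 0.61 and 1.63 CPM, which is 59 of 66 and 146 of 155 UMIs. Other genes of the study's lipid pathway were found too. Scd2, a fatty acid desaturase, was at 60.4 and 53.8 CPM in all members and Ptgs1, the constitutive cyclooxygenase, at 156 and 233 CPM, higher in central cells at 308 against 86.6 CPM. Ltb4r2, an oxylipin receptor, was at 0.08 and 0.33 CPM, too low to compare.

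**Figure D4:**
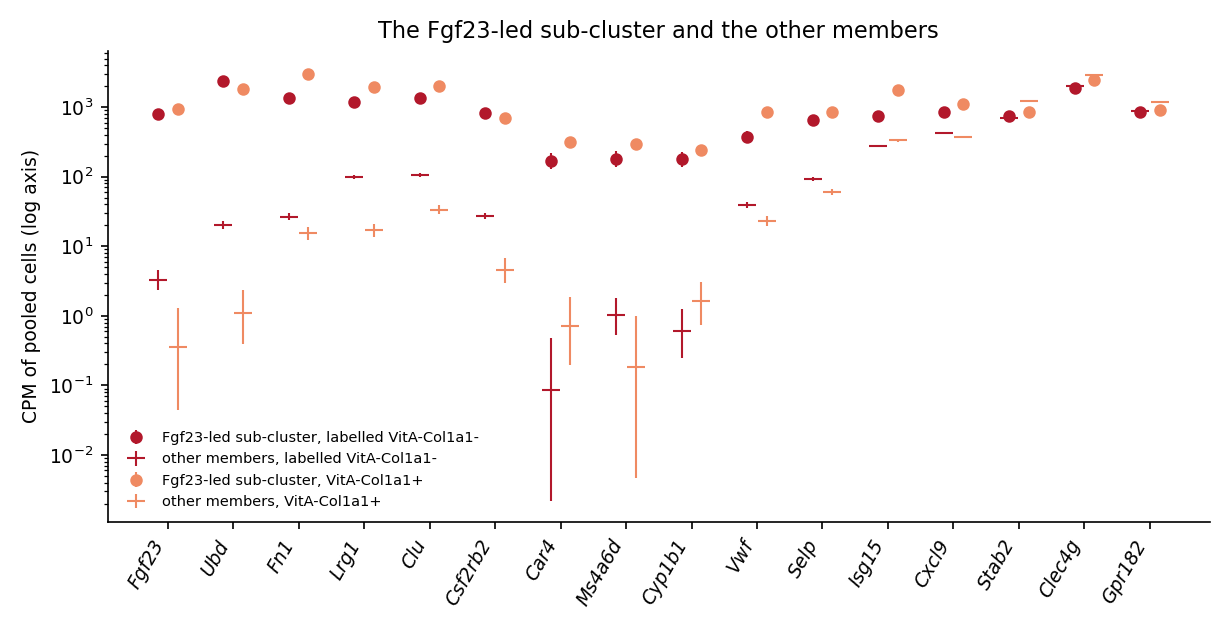
Pooled levels in CPM (UMIs per 1000000, log axis) in the Fgf23-led sub-cluster (points) and in all other members (dashes) of both DEN+WAD libraries, with exact Poisson 95% intervals. Fgf23 was at 790 and 935 CPM in the sub-clusters and at 3.30 and 0.36 CPM elsewhere, while Gpr182 was at 860 and 918 CPM against 868 and 1182 CPM.

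Counted without clustering, 25 of 1468 members (1.70%, 1.11 to 2.50) and 18 of 424 (4.25%, 2.54 to 6.63) held 2 or more Fgf23 UMIs. The VitA+Col1a1+ DEN+WAD count was 2 of 165 (1.21%). It was 0 of 34 in VitA-Col1a1+ chow, with an interval up to 10.3%, so the chow cells were too few to show a difference. Mesenchymal cells gave a background of 0.16% and 0.05% in the first 2 libraries, and macrophage cells 0 of 830. Of the cells lacking 1 of Stab2 and Clec4g in the library labelled VitA-Col1a1-, 5 of 182 held 2 or more.

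The remaining sub-clusters, 9 in all in the library labelled VitA-Col1a1- and 5 in VitA-Col1a1+, were as follows. A cycling set led by Top2a and Mki67 (30 and 5 cells) shared 8 of 10 leading genes between the libraries. A set led by Rspo3 (40 and 144 cells) shared 4, but held Rspo3 at 1697 CPM in the first library and 225 CPM in VitA-Col1a1+. Another, with Kcne3, Ccl2 and Odc1 among its leading genes (372 and 95 cells), shared 5. In this last set Cxcl9 was at 786 and 705 CPM and Lyve1 at 1277 and 1773 CPM, each above the pooled members. Fgl2 and Esm1 led a set of 162 cells in the first library, with Esm1 at 1731 CPM against 250 CPM in its other members. These 162 cells were shallow, with a median of 3932 UMIs against 7833 in all members of that library. In VitA-Col1a1+ Esm1 was at 304 CPM in the set of 95 cells, against 54.4 CPM in the other members. It was at 471 CPM in the 5 cycling cells.

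The largest sub-cluster of each library, with 385 cells (26.2%) and 159 cells (37.5%), shared 2 of 10 leading genes, Adgrg6 and Mecom. Adgrg6, an adhesion G protein-coupled receptor, was at 79.7 and 50.3 CPM in these sets against 10.6 and 1.19 CPM in the other members. Mecom, a transcription factor of arterial endothelium, was at 91.6 and 75.5 CPM against 29.0 and 17.2 CPM. In the first library the other leading genes included Efnb1, at 473 against 156 CPM, Vwf, at 92.5 against 33.3 CPM, and Hbb-bs, at 438 against 10.6 CPM, which came mostly from the single member named above. In VitA-Col1a1+ they included the heat shock gene Hspa1b, at 3918 against 1338 CPM, and the portal genes Msr1, at 423 against 160 CPM, and Ltbp4, at 651 against 251 CPM.

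The last 3 sub-clusters of the library labelled VitA-Col1a1- were led by genes of other cells and shared none of their 10 leading genes with a sub-cluster of VitA-Col1a1+. In 360 cells Spp1, Krt18, Apoa1 and Alb led, with Alb at 2239 against 319 CPM. In 88 cells Colec10, Rgs5 and Lrat led, with Lrat at 256 against 19.7 CPM. In 8 cells, 2 of them marked as doublets, immunoglobulin genes led. Stab2 in these 3 sets was at 839, 620 and 437 CPM, and the part of doublets or free RNA in them was not tested.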

How the data were processed

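Sorted liver cells were profiled in 5 droplet libraries, 1 per group. The deposited values were UMI counts per gene and barcode for 31053 genes. Per the labels and the study's methods the authors aligned reads to mm10 and counted with Cell Ranger (3.1.0 in the submitters' processing notes and 4 headers, 6.1.2 in the remaining header, that of VitA-Col1a1- DEN+WAD). Every deposited barcode was used.

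Counts of member cells were pooled per library and scaled to 1000000 UMIs (CPM). Levels carry exact Poisson intervals, ratios conditional binomial intervals and shares Clopper-Pearson intervals, all at 95% and for counting error only. A count of 0 was given a floor of 3 UMIs. Genes with a mean of 10 CPM or more over both profiles counted as higher or lower past 2-fold. For shares, cells were thinned to 2000 UMIs. Members of each library were clustered by Leiden at resolution 0.5 on 30 components, 15 neighbours and 2000 variable genes. Macrophage cells held Cd5l or Clec4f with at least 2 of C1qa, C1qb, Csf1r and Adgre1, mesenchymal cells 20 or more Dcn, Col3a1 and Colec11 UMIs per 10000, and both fewer than 3 of the endothelial genes. Doublets marked by Scrublet were kept.

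The members and gene lists were chosen with earlier results of these data known. Named were the genes of the rule, members of the lists, the 15 genes with the largest ratios over other cells, over other endothelial cells and between gates, and the 10 each way between central and portal cells. Genes between DEN+WAD and chow outside the lists, the up-to-5 Cd5l limit and the VitA+Col1a1+ substitution were added after seeing the data. Genes were located in GENCODE M21 (30934 identifiers, 99.6%, found). Steps were tested on simulated data. Python 3.11.15, numpy 2.4.6, pandas 2.3.3, scipy 1.17.1, scanpy 1.11.5, igraph 0.11.9 and matplotlib 3.10.9 were used, with edgeR 4.0.16 for one alternative scaling.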

Additional observations from a re-analysis of the deposited data

How the results depend on the processing

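With 1 library a group, replicate spread is unknown and depth limits only counting error. No paired analysis was possible because each group has 1 library and no test was made. Over 14 alternatives 431 of 506 values moved by less than their counting interval or 1.5 times, and 75 moved by more. Only log2 ratios whose interval left out 0 could be called reversed, and 0 were. Counts and shares cannot change direction. Vwf between the gates had a log2 ratio of 1.12, and 0.49 with equal weight for each cell. Demanding 2 UMIs of Stab2 and Clec4g gave 13.3% of cells and an identity-gene median log2 ratio of 3.06 in the library labelled VitA-Col1a1-. A mesenchymal limit of 5 per 10000 gave 11.9% and 12.6% of cells, medians of 2.87 and 4.69, and a cycling median of -2.84 against chow. Without Scrublet-marked cells the medians were 3.20 and 7.42 (7.415), and with equal weight for each cell 2.74. TMM scaling between gates gave an identity median of 0.32. A filter of 1 CPM between gates gave 562 genes higher and 628 lower. A fold of 1.5 gave 2185 and 3037 genes higher than in other cells, 1945 higher and 1622 lower than in other endothelial cells, 641 and 275 between gates, and 1077 and 928 against chow. Taking cells lacking at least 1 of Stab2 and Clec4g as other endothelial cells gave 185 higher, 343 lower and a median of 1.35. Up to 5 Cd5l UMIs gave 20.9% of cells and a median of 3.94 (3.935). With VitA+Col1a1+ DEN+WAD in place of VitA-Col1a1+, the adhesion and chemokine median was 0.75 and the cycling median -2.97. At full depth Wnt2 was found in 44.1% and 68.2% of members, Dll4 in 66.9% and 88.0%, Plvap in 76.8% and 86.6% and Vwf in 13.1% and 8.73%, against 43.6% and 44.4% for Plvap and 5.35% and 5.67% for Vwf when thinned.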
